A study of Rattus norvegicus with 192 samples.

Results

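Fludioxonil, a phenylpyrrole fungicide, was given to primary hepatocytes from male rats at 0.4, 1.2, 3.7, 11.1, 33.3 and 100 µM, with 1 library at each dose. These libraries, chosen by the chemical named in their labels, are 6 of the 174 libraries of the study's dose series, which covered 29 chemicals. They were read against DMSO replicates 2 to 9, 8 libraries that received the solvent alone. DMSO replicate 1 stood apart from the other DMSO libraries and was left out. All cells were exposed for 24 h in 0.1% DMSO after plating on collagen, and the labels name no genetic change. Strain and age are not given in the sources used here. Expression was measured by TempO-Seq, a targeted sequencing assay in which 2 adjoining detector oligonucleotides are joined on their RNA and the joined products are counted. A further 9 reference chemicals had 1 library each, and 9 DMSO libraries were spread over 3 plates. The fludioxonil libraries were all on plate 2, as were DMSO replicates 4 to 6. The comparison asks which genes moved with fludioxonil and at which dose they left the control range. Whether wells of 1 group were separate cultures or animals is not stated in the labels, and the spread behind each p-value may be technical only.

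Hepatocytes meet foreign compounds with a small set of sensors. The aryl hydrocarbon receptor (AhR) pairs with ARNT on ligand binding and switches on Cyp1a1, Cyp1a2 and Tiparp. The nuclear receptors CAR and PXR raise the Cyp2b and Cyp3a enzymes and several conjugating enzymes and transporters. NRF2 is freed from KEAP1 by electrophiles and oxidants and raises antioxidant and glutathione-transfer genes. In the same cells PPARα governs fatty acid oxidation in a programme of the fasting liver.

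The fludioxonil libraries held 4279202 to 6583232 counts and the DMSO libraries 2876741 to 8513985. Levels are CPM, a probe's counts scaled to a common library total, and can be compared between libraries but not between genes. DMSO replicate 5 was the shallowest of the 14 libraries. DMSO replicate 5 differed from the other 7 DMSO libraries at 2254 of 11055 tested probes, by the range rule described next, against 121 to 351 probes for each of the other DMSO libraries. The fludioxonil libraries at 1.2 and 11.1 µM lay along the direction of DMSO replicate 5, with library scores of 0.61 and 0.66 on a scale where that library is at 1. The other 4 fludioxonil libraries had scores from -0.24 to -0.01. What sets these libraries apart was not tested. Counts of calls in the dose trend and in the comparisons with other chemicals are given with and without these 3 libraries, as are the genes called in them.

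The response was concentrated in the 100 µM library. A probe was counted as outside the DMSO range when its log2 CPM lay beyond all 8 DMSO libraries and at least 1 log2 unit from their mean. At 100 µM, 546 probes were above the range (4.94% of those tested) and 878 were below it (7.94%). From 0.4 to 33.3 µM the numbers outside the range were 355, 889, 194, 697 and 348. The 0.4, 3.7 and 33.3 µM libraries, with 194 to 355, were near the 121 to 351 of single DMSO libraries, and the 2 higher numbers belong to the 1.2 and 11.1 µM libraries. Of the 1424 probes outside the range at 100 µM, 1346 met the rule from 100 µM alone and 60 from 33.3 µM. In all 78 probes (0.706% of those tested) had left the range by 33.3 µM or below and stayed outside it, on the same side, at every higher dose.

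**Figure D1:**
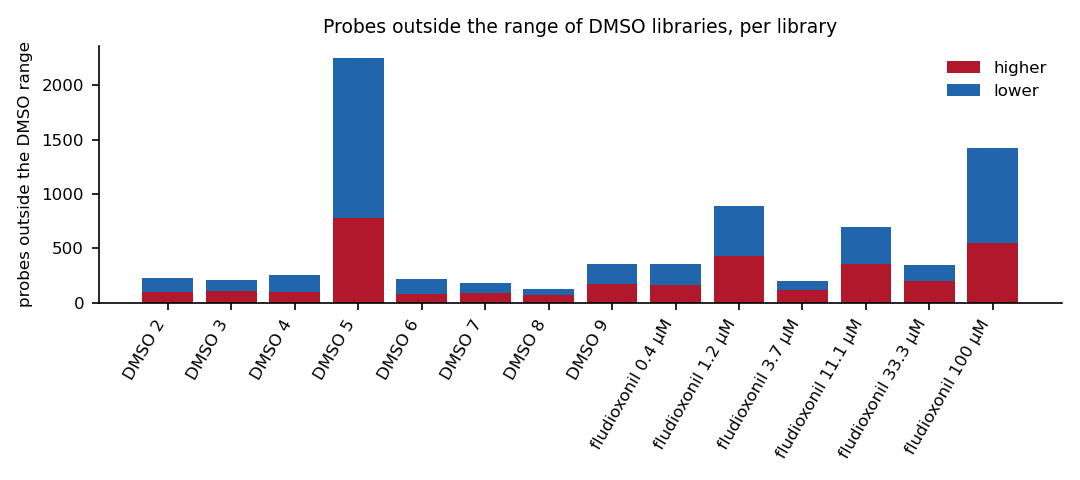
Number of tested probes above (red) and below (blue) the DMSO range in each library, with each DMSO library set against the other 7. The 100 µM library had 1424 such probes and the other fludioxonil libraries 194 to 889, while DMSO replicate 5 had 2254.

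The dose trend was tested over all 6 doses with edgeR's quasi-likelihood test, using log2(1 + dose) as the score, and is given as the fitted log2 change at 33.3 µM. This value is read from a line fitted through all doses and can differ widely from the change in the 33.3 µM library. After Benjamini-Hochberg adjustment 8 of 11055 probes passed the threshold of 0.05 (0.0724%), 5 higher (0.0452%) and 3 lower (0.0271%). The unadjusted p was under 0.05 for 1060 probes, and DESeq2 gave 76 calls. Without the 100 µM library 0 probes passed (510 had an unadjusted p under 0.05, and DESeq2 was run only on the full series). Against the DMSO libraries of plate 2 alone 0 passed (744 unadjusted). Leaving out DMSO replicates 2 to 9 in turn left 4, 4, 1, 4, 2, 4, 3 and 4 calls. Cyp1a1 kept its call without each of these, while Gsta2, Slc10a2, Mki67 and LOC102549061 lost theirs without any 1 of them. Pck1 lost its call without replicate 4, 6 or 8, LOC1009122280.000001 without 4 or 6 and Gsta50.81 without 4. Leaving out the 3.7 µM library left 4, and leaving out the 33.3 µM library gave 42. Without the 1.2 and 11.1 µM libraries and DMSO replicate 5 together there were 16, and all 8 kept their call, with Cyp1a1 at 4.64 and Slc10a2 at -2.12.

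Because most of the response lay in 1 library, the 100 µM library was also set against DMSO replicates 2 to 9 in a fit added after the data were seen. That fit assumes that the lone library varies as the DMSO libraries do. It called 457 probes (4.13%), of which 140 were higher (1.27%) and 317 lower (2.87%). All 8 probes called in the dose trend were among them. Against plate 2 DMSO alone 9 probes were called, among them Cyp1a1, LOC1009122280.000001, Gsta50.81, Gsta2, Fosl1 and Mt2A, which were higher, and Cryab and Sult1a1, which were lower. Leaving out DMSO replicates 2 to 9 in turn gave 274, 279, 230, 922, 476, 337, 231 and 288 calls, the highest number without replicate 5. In all 203 probes, 56 higher and 147 lower, were called also without each DMSO library and with the library score as a covariate. Of 92 genes with a call at 100 µM that were followed singly, 66 kept it without each DMSO library and 26 lost it without at least 1. The 12 that lost it without 1 to 4 of the 8 libraries were Mki67, Cyp1a2, Cyp3a2, Scd1, Top2a and Dgat2 (1 each), Gdf15, Cyp51 and Ndrg1 (2 each), Abcc3 and Cyp27a1 (3 each) and Herpud1 (4). The 14 that lost it without 5 to 7 were Acaca, Otc, Cyp2c6v1, Mdm2, Fbp1, Hp, Asgr1, Hsd17b7, Fgg, Atp5a1, Plin2, Tat, Dusp1 and Srebf2. Replicate 4 was the library for 5 of the 6 genes that lost it once, and replicate 8 for Dgat2. The 140 probes called higher had median differences from the DMSO mean of 0.18, -0.05, 0.11, -0.04 and 0.13 log2 units from 0.4 to 33.3 µM, and 1.32 at 100 µM. The 317 called lower had medians between -0.18 and 0.02 up to 33.3 µM and -1.53 at 100 µM. Both sets were chosen by their 100 µM values, so these medians only describe the lower doses.

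Cyp1a1, the P450 most closely tied to AhR, showed the largest rise of the genes named here. Its level was 4.91, 4.06, 6.53, 4.16, 10.2 and 151 CPM from 0.4 to 100 µM, against 0 to 3.40 CPM with a median of 1.15 in DMSO. Every fludioxonil library was above every DMSO library, by a little up to 33.3 µM and by a wide margin at 100 µM. The fitted trend was 4.62 ± 0.53 (SE) log2 units at 33.3 µM (edgeR adjusted p = 0.00359), and the 100 µM library was 118 times the DMSO mean of 1.28 ± 1.11 CPM (SD, n = 8). Without the 100 µM library the trend was 2.57 and was no longer called. The 0.4 µM libraries of the 13 other chemicals on plate 2 held 1.17 to 6.01 CPM, and 6 of them were also above the highest DMSO library. In bulk samples fewer cells of a type and less RNA per cell cannot be told apart, here and for every gene that follows.

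Of the 15 AhR targets listed, 8 could be tested. In the dose trend 2 rose, Cyp1a1 and Gsta2. At 100 µM 5 rose and 1 fell, against 1.27% and 2.87% of all tested probes, and the median change of the list was 1.86 log2 units, beside -0.03 for all tested probes. Tiparp, an ADP-ribosyltransferase that feeds back on AhR, had 48.6, 43.9, 39.5, 38.8, 40.1 and 112 CPM from the lowest to the highest dose, against 20.9 to 45.0 CPM in DMSO. It rose by 2.08 ± 0.24 log2 units at 100 µM (adjusted p = 0.00188). Cyp1a2, the second liver enzyme of the Cyp1a family, had 92.3, 51.1, 90.8, 59.2, 119 and 197 CPM, against 29.5 to 87.2 CPM in DMSO. Its 2 lowest values are those of the 1.2 and 11.1 µM libraries, and DMSO replicate 5 is the lowest of the DMSO libraries. Cyp1a2 rose by 1.89 ± 0.36 at 100 µM (adjusted p = 0.0204), a call lost without DMSO replicate 4.

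Cyp1b1, another AhR target, had too few counts to be tested. It had 43 counts (9.25 CPM) at 100 µM, against 0 to 2 counts in the other fludioxonil libraries and 0 to 5 in DMSO. Ahrr, the AhR repressor, had 0 counts in all 14 libraries. Aldh3a1, which also had too few counts to be tested, reached 1.08 CPM at 100 µM, against at most 0.348 CPM in DMSO. Ahr itself had 251 CPM at 100 µM, against 133 to 216 CPM in DMSO, and was not called.

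The AhR and ARNT dimer binds sites with the core GCGTG. The 250 bases before the RefSeq transcription start (GRCr8) were searched for that core on both strands, so that its complement CACGC counts as a match. The table held 33469 windows of 27457 genes, and 28.4% of these genes had at least 1 match. Of the 5 AhR targets that rose, 4 had a window in the table and 3 of these, Tiparp, Nqo1 and Gsta2, held the core, while the window of Cyp1a2 held none. Among all tested AhR targets 3 of 6 windows held it, and among tested NRF2 targets 14 of 25. Of the risen NRF2 targets with a window 5 of 6 held it, and of the risen CAR and PXR targets 0 of 4. The core is thus not particular to the AhR list. The windows of Tiparp and Gsta2 are shown 5′ to 3′ with the core and its complement in capitals, Tiparp on the plus strand at chr2:152063519-152063768 with 1 match that begins 136 bases before the start, and Gsta2 on the minus strand at chr8:88077093-88077342 with 2 adjoining matches that begin 24 and 19 bases before it. A match describes the letters alone.
Tiparp: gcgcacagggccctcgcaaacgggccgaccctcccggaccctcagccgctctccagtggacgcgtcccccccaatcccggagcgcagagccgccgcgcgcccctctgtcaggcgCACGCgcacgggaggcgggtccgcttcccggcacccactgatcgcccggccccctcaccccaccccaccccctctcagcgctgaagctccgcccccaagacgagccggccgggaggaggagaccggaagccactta
Gsta2: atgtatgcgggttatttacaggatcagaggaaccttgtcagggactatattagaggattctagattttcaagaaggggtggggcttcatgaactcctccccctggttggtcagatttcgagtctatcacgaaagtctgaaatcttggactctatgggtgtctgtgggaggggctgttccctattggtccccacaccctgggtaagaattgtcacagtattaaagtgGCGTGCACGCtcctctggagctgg

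**Figure D2:**
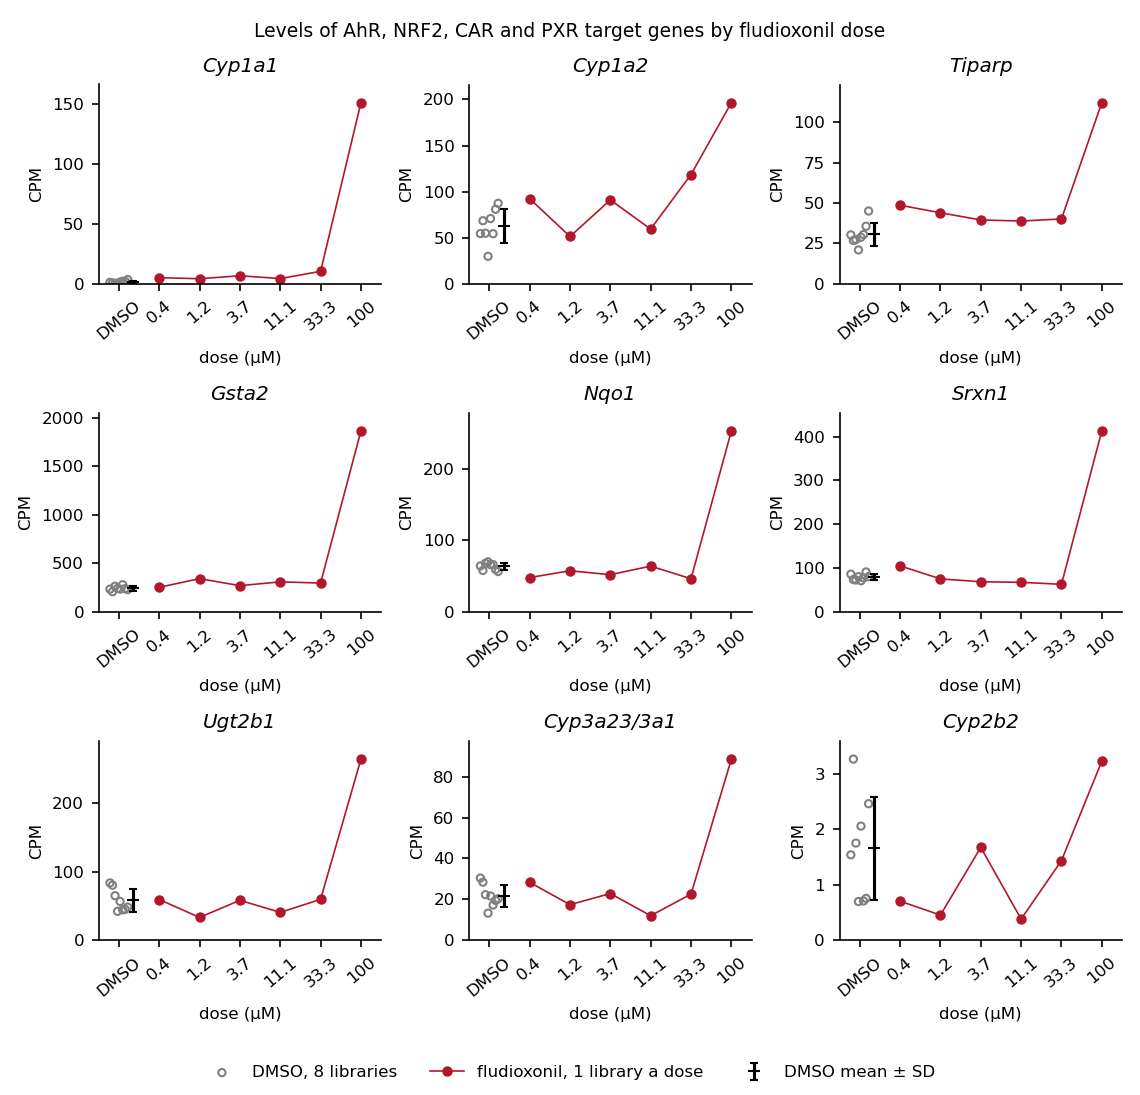
Levels (CPM, linear axes from 0) of 9 target genes in the 8 DMSO libraries (open circles, with mean ± SD) and in the fludioxonil libraries (red, 1 per dose). In 8 panels the 100 µM point lies above every DMSO library, and Cyp2b2 stays within the DMSO range at 3.23 CPM.

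The alpha-class glutathione transferases rose with the AhR targets, and the NRF2 list holds them too. Gsta2, which conjugates glutathione to electrophiles and reduces lipid peroxides, had 253, 342, 270, 309, 297 and 1867 CPM from 0.4 to 100 µM, against 207 to 280 CPM with a median of 237 in DMSO. The fitted trend was 1.73 ± 0.28 (adjusted p = 0.0286) and the 100 µM library was 7.75 times the DMSO mean. The call in the dose trend was lost without any 1 of the DMSO libraries, with adjusted p up to 0.106, while the change stayed at 1.72 or above. Without the 100 µM library the trend of Gsta2 was 0.34 and that of the next probe 0.68. The probe named Gsta50.81 had 43.9, 29.1, 42.8, 51.8, 50.3 and 346 CPM, against 29.0 to 40.2 CPM in DMSO, and a trend of 2.09 ± 0.29 (adjusted p = 0.0123). Close members of this family can share probes, so which member is counted is uncertain.

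Of 29 NRF2 targets tested, 9 rose at 100 µM and 0 fell, against 1.27% and 2.87% of all tested probes. The median change of the list was 0.83 log2 units. In the dose trend 1 rose, Gsta2. Srxn1, the sulfiredoxin that restores oxidised peroxiredoxins, had 105, 75.2, 68.7, 67.4, 62.8 and 413 CPM from 0.4 to 100 µM, against 70.9 to 91.1 CPM in DMSO. It rose 5.23-fold at 100 µM (2.41 ± 0.19 log2 units, adjusted p = 0.000249), while the libraries from 3.7 to 33.3 µM were below every DMSO library. Nqo1, a quinone reductase raised by both AhR and NRF2, had 253 CPM at 100 µM and 46.3 to 63.9 CPM at the lower doses, against 56.4 to 69.9 CPM in DMSO (1.84 ± 0.18, adjusted p = 0.000827). Thioredoxin reductase Txnrd1 had 313 CPM at 100 µM and 65.8 to 103 CPM below it, against 85.2 to 131 CPM in DMSO (1.62 ± 0.18, adjusted p = 0.00149).

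Akr7a3, an aldehyde reductase, also rose at 100 µM, by 1.46. Hmox1, haem oxygenase, rose by 1.42, but its level was no higher at 100 µM, 784 CPM, than at 0.4 µM, 800 CPM, against 241 to 595 CPM in DMSO. The 0.4 µM libraries of the 13 other chemicals on plate 2 had 398 to 882 CPM, 8 of 13 above the highest DMSO library, so the 100 µM value lies within their range. The 2 subunits of the enzyme that limits glutathione synthesis did not pass. Gclc had 209 CPM at 100 µM, against 114 to 187 CPM in DMSO (adjusted p = 0.156), and Gclm had 143 CPM, against 55.0 to 105 CPM (adjusted p = 0.0789). Nfe2l2, which encodes NRF2, had 565 CPM, against 313 to 411 CPM in DMSO (0.64 ± 0.16, adjusted p = 0.0569). The window of Srxn1 on the plus strand at chr3:161064562-161064811 is shown with GCGTG and CACGC in capitals, which begin 152 and 54 bases before the start. The antioxidant response element TGACNNNGC, searched on both strands, was found for 11% of all genes. Of the 25 tested NRF2 targets with a window 7 held it, and of the 6 that rose and had a window 2 did. The window of Srxn1 holds no match, which says only that these letters are not in this stretch.
Srxn1: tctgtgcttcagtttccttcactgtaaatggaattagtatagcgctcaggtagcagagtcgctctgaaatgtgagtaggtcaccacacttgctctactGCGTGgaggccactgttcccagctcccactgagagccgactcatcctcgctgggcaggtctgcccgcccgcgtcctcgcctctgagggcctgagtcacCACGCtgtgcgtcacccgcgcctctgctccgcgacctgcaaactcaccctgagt

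Among 20 CAR and PXR targets 8 rose and 1 fell at 100 µM, against 1.27% and 2.87% of all tested probes. The median change of the list was 0.73 log2 units, and 0 were called in the dose trend. The Cyp3a enzymes, the main PXR targets in rat liver, rose together. Cyp3a23/3a1 had 28.3, 17.3, 22.8, 11.9, 22.5 and 88.6 CPM from 0.4 to 100 µM, against 13.2 to 30.4 CPM in DMSO, a rise of 2.17 ± 0.25 at 100 µM (adjusted p = 0.00164). Cyp3a1 had 1388 CPM at 100 µM and 513 to 572 CPM below it, against 366 to 552 CPM in DMSO (1.49 ± 0.18, adjusted p = 0.00221). Cyp3a2 rose by 0.88 and Cyp2c6v1 by 0.79, and the call of Cyp2c6v1 was lost in 8 of 17 alternatives. At 0.4 µM the other chemicals of plate 2 were above every DMSO library for Cyp3a2 in 7 of 13 and for Cyp2c6v1 in 9 of 13, though below the 100 µM library of fludioxonil.

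The glucuronosyltransferases showed the same step. Ugt2b1 had 265 CPM at 100 µM and 33.1 to 59.6 CPM below it, against 42.1 to 83.7 CPM in DMSO (2.23 ± 0.20, adjusted p = 0.000568). Ugt2b10 had 1020 CPM, against 190 to 348 CPM (1.91 ± 0.20, adjusted p = 0.00125). Abcc3, which exports conjugates to the blood, rose by 1.82, and Ephx1, microsomal epoxide hydrolase, by 1.05. Cyp2b2, the marker of CAR activity in rat liver, did not pass. It had 0.701, 0.451, 1.67, 0.378, 1.43 and 3.23 CPM, against 0.695 to 3.26 CPM in DMSO, so the groups overlapped at every dose but 1.2 and 11.1 µM, where it was lower (100 µM library, adjusted p = 0.477). Aldh1a1, a retinal dehydrogenase on the CAR and PXR list, fell at 100 µM to 93.6 CPM, against 303 to 694 CPM in DMSO (-2.65 ± 0.36, adjusted p = 0.0037). Among 10 receptors and partners 1 fell, Nr1h4, the bile acid receptor FXR, at 7.96 CPM, against 28.3 to 58.1 CPM in DMSO. Nr1i2 (PXR), Nr1i3 (CAR) and Arnt were not called.

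**Figure D3:**
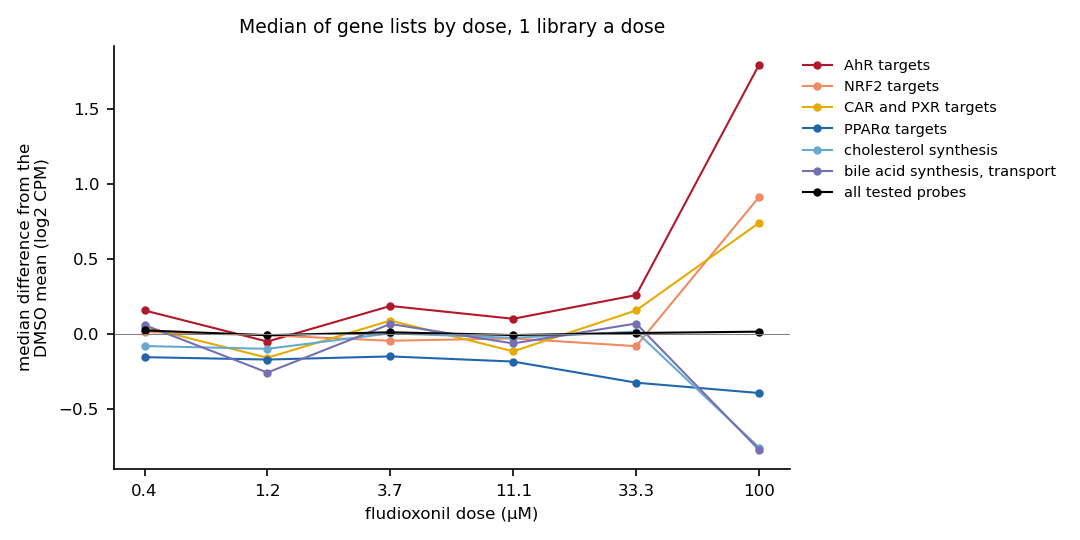
Median difference from the DMSO mean in log2 CPM for 6 gene lists and for all tested probes, by dose. The medians lie between -0.32 and 0.26 up to 33.3 µM, and at 100 µM the AhR list reaches 1.79, the NRF2 list 0.91, the cholesterol list -0.75 and the bile acid list -0.77, while all probes stay at 0.02.

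Of 28 PPARα targets 5 fell and 0 rose at 100 µM, against 2.87% and 1.27% of all tested probes. The median of the list was -0.51 log2 units, and the other 23 were not called. Fgf21, a fasting hormone of the liver, had 20.8, 32.0, 21.3, 26.9, 16.0 and 2.37 CPM, against 26.7 to 42.8 CPM in DMSO (-3.92 ± 0.48, adjusted p = 0.00231). Vnn1, a pantetheinase, fell by 2.18 log2 units, the fatty acid carrier Cd36 by 1.42 and the lipid droplet protein Plin2 by 0.81. Cd36 was below every DMSO library at all 6 doses, with 57.7 to 93.7 CPM, against 111 to 171 CPM. So were 11 of the 13 other chemicals of plate 2 at 0.4 µM, with 24.3 to 114 CPM and a median of 69.8. The 100 µM value of fludioxonil lies within that range. The Plin2 call was lost in 10 of 17 alternatives. The fatty acid omega-hydroxylase Cyp4a1 was not called, at -0.40 log2 units.

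Of 21 genes of cholesterol synthesis and its control 6 fell and 0 rose, against 2.87% and 1.27% of all tested probes. The median of the list was -0.93. Hmgcs1, an early enzyme of the pathway, had 1.72 CPM at 100 µM and 4.44 to 7.38 CPM below it, against 5.48 to 11.8 CPM in DMSO. Cyp51, the sterol demethylase, had 113 CPM, against 209 to 312 CPM. Acat2, Hsd17b7 and the master regulator Srebf2 also fell, and the last 2 calls were lost in 8 and 10 of 17 alternatives. At 0.4 µM 8 of the 13 other chemicals of plate 2 were below every DMSO library for Hmgcs1 and for Hsd17b7, and 7 for Acat2, all above the 100 µM library of fludioxonil. Of 16 genes of fatty acid and triglyceride synthesis 5 fell, namely Acly, Acaca, Acss2, Dgat2 and Lpin1, with the call of Acaca lost in 7 of 17 alternatives. Acly, which makes cytosolic acetyl-CoA, had 183 CPM, against 528 to 699 CPM in DMSO (-1.85 ± 0.21, adjusted p = 0.00166). Scd1, the stearoyl-CoA desaturase, went the other way, with 612 CPM, against 279 to 406 CPM (1.01 ± 0.18, adjusted p = 0.0153). At 0.4 µM the 13 other chemicals of plate 2 had 284 to 668 CPM of Scd1, 5 of 13 above the highest DMSO library. The 100 µM value of fludioxonil lies within that range.

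The 13 genes of bile acid synthesis and transport had a median of -0.67. Of them 4 fell and 0 rose, against 2.87% and 1.27% of all tested probes. The 4 were Akr1d1, the steroid 5β-reductase, with 97.0 CPM, against 287 to 545 CPM in DMSO, the sterol hydroxylase Cyp27a1, the peroxisomal oxidase Acox2 and the uptake transporter Slco1a1. Slc10a2, the apical bile acid transporter known best from the ileum, fell in the dose trend. It had 6.05 to 11.7 CPM from 0.4 to 33.3 µM and 1.72 CPM at 100 µM, against 15.5 to 28.5 CPM with a median of 22.0 in DMSO. All 6 fludioxonil libraries were below all DMSO libraries, and the trend was -2.28 ± 0.37 (adjusted p = 0.0286). At 0.4 µM the 13 other chemicals of plate 2 had 7.19 to 17.3 CPM with a median of 12.7, and 11 of them were below every DMSO library as well. The 100 µM library of fludioxonil was below all of them.

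Among 20 genes of glycolysis and gluconeogenesis 4 fell and 2 rose at 100 µM, against 2.87% and 1.27% of all tested probes. Pyruvate kinase Pklr had 2.15 CPM, against 10.5 to 20.0 CPM, and the fructose-pathway kinase Tkfc had 13.8 CPM, against 43.3 to 79.9 CPM. Fbp1 fell by 0.84, a call lost in 9 of 17 alternatives. Pck1, the entry step of gluconeogenesis, rose in the dose trend. It had 4.21, 3.38, 6.84, 8.70, 8.39 and 14.6 CPM, against 3.59 to 5.40 CPM in DMSO, so that the 4 highest doses were above every DMSO library (trend 1.41 ± 0.21, adjusted p = 0.0213). Its trend without the 100 µM library was 1.37 (adjusted p = 0.734). At 0.4 µM the 13 other chemicals of plate 2 had 1.92 to 6.36 CPM of Pck1. Of these, 6 were above the highest DMSO library and 3 below the lowest. Tat, tyrosine aminotransferase, rose by 0.87 at 100 µM, a call lost in 9 of 17 alternatives.

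**Figure D4:**
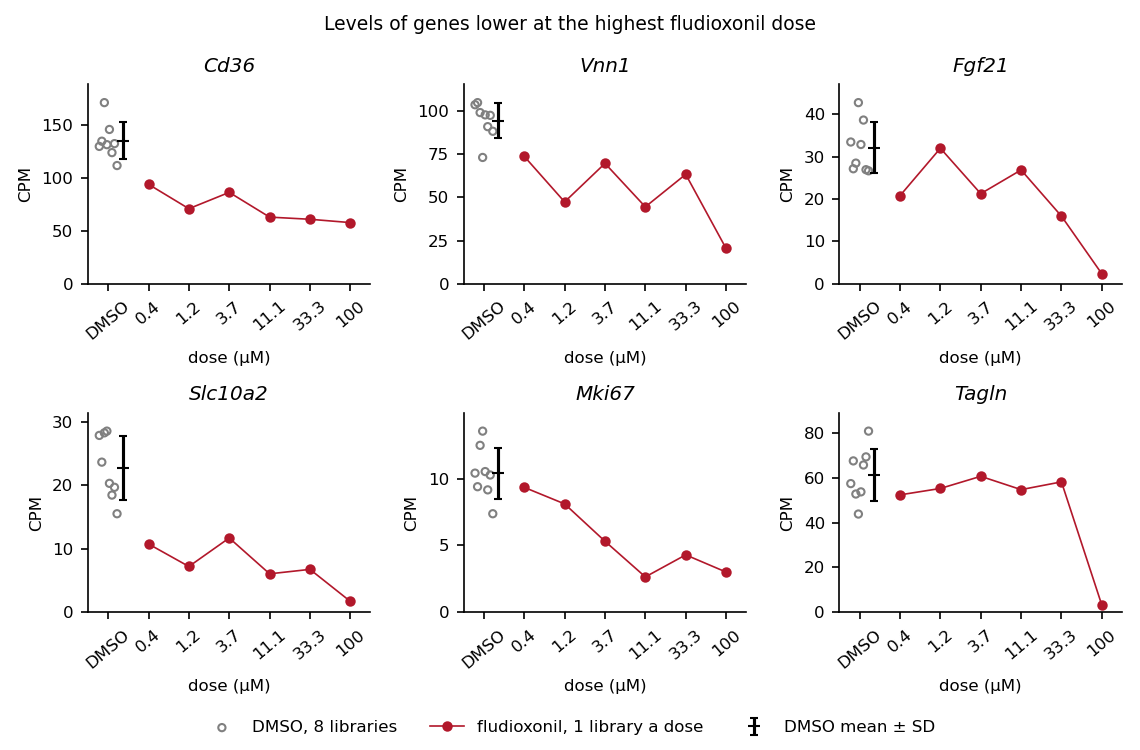
Levels (CPM, linear axes from 0) of 6 genes in DMSO libraries (open circles, with mean ± SD) and fludioxonil libraries (red, 1 per dose). The 100 µM point lies below every DMSO library in each panel, and Slc10a2 and Cd36 lie below at all 6 doses, as do 11 of 13 other plate 2 chemicals at 0.4 µM for each gene (not plotted).

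Of 21 genes of the integrated stress response, the pathway that slows translation, 2 rose and 1 fell at 100 µM. Ddit3, the transcription factor CHOP, had 182 CPM at 100 µM and 52.6 to 76.6 CPM below it, against 43.5 to 79.4 CPM in DMSO (1.75 ± 0.19, adjusted p = 0.00152). The stress cytokine Gdf15 had 119 CPM, against 31.5 to 56.0 CPM, and the member that fell was Fgf21. Atf4, Asns and Trib3, core members of the same response, were not called, at -0.22, 0.33 and -0.07. Among 18 immediate early and stress kinase genes Atf3 rose by 2.01 and the phosphatase Dusp5 by 2.16, while Dusp1 fell by 0.79, a call lost in 9 of 17 alternatives. Fosl1, an AP-1 subunit that is on none of the lists, had 34.1, 28.2, 29.6, 21.9, 22.7 and 281 CPM, against 28.2 to 53.1 CPM in DMSO (2.90 ± 0.20, adjusted p = 0.000175). Of 14 genes of the unfolded protein response 0 rose and 2 fell, Herpud1, a call lost in 6 of 17 alternatives, and Edem1. Of 11 cytosolic heat shock genes 0 were called, and of 14 p53 targets 1 rose, Mdm2, a call lost in 9 of 17 alternatives. With 1.27% of all tested probes called higher and 2.87% lower, counts of 1 or 2 are no result about these lists.

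Of 15 cell cycle genes 1 fell in the dose trend and 2 at 100 µM, against 0.0271% and 2.87% of all tested probes. Mki67, the marker of cycling cells, had 9.35, 8.11, 5.32, 2.65, 4.30 and 3.01 CPM from 0.4 to 100 µM, against 7.38 to 13.6 CPM in DMSO. The 2 lowest doses lay within the DMSO range and the other 4 below it, with a trend of -1.65 ± 0.27 (adjusted p = 0.0286). At 0.4 µM the other chemicals of plate 2 spanned 4.03 to 11.7 CPM, with 8 of 13 below every DMSO library. Top2a had 0 counts at 100 µM, against 6 to 11 counts in DMSO. It had 0 counts in the 0.4 µM fludioxonil library too, and 10 of the 13 other chemicals on plate 2 were below every DMSO library at that dose, with a median of 0.634 CPM, against 0.877 to 2.78 CPM in DMSO. A count of 0 allows up to 3 counts, so it was at least 2.56-fold lower. Mki67 and Top2a were the 2 called at 100 µM, and both calls were lost without DMSO replicate 4.

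Some of the largest changes at 100 µM fell outside the lists. LOC1009122280.000001, an unnamed transcript, had 94.6, 57.7, 95.8, 58.7, 135 and 529 CPM from 0.4 to 100 µM, against 19.8 to 75.8 CPM in DMSO, with a trend of 2.41 ± 0.34 (adjusted p = 0.0123). The 13 other chemicals of plate 2 had 50.5 to 96.8 CPM of it at 0.4 µM, 4 of 13 above the highest DMSO library. Other probes that rose were Podxl, a sialomucin, at 13.1 CPM, against 0.512 to 1.54 CPM in DMSO, the syntenin-like Sdcbp2 at 91.2 CPM, against 4.52 to 20.8 CPM, and Procr, the protein C receptor, at 29.5 CPM, against 3.82 to 12.9 CPM. Transglutaminase Tgm1 had 51.6 CPM, against 6.32 to 14.3 CPM. Among those that fell were Hao2, a peroxisomal hydroxyacid oxidase, by 3.99 log2 units, and the small heat shock protein Cryab at 6.02 CPM, against 68.3 to 114 CPM. Map3k7cl had 0 counts at 100 µM, against 11 to 46 counts in DMSO, and was at least 6.54-fold lower. Nefl, a neurofilament chain, had 0 counts, against 8 to 30 counts, and was at least 5.31-fold lower. For Map3k7cl 6 of the 13 other chemicals of plate 2 were below every DMSO library at 0.4 µM, and for Nefl 6. All 13 were above the 100 µM library of fludioxonil for each gene. Rem1 had 1 count, against 13 to 59 in DMSO, and Sytl2 had 2, against 34 to 75. LOC102549061 fell in the dose trend, with 14.3, 12.4, 10.9, 9.27, 8.80 and 6.67 CPM, against 18.7 to 29.0 CPM in DMSO (adjusted p = 0.0286). Its 6 values were all below DMSO and were lower at each higher dose, while the other chemicals of plate 2 had 6.40 to 20.2 CPM at 0.4 µM, 12 of 13 below every DMSO library.

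The probes whose pattern was most like that of Cyp1a1 over the 14 libraries, by Pearson's r of log2 CPM, were Tiparp (0.956), LOC1009122280.000001 (0.949), Mroh2a (0.948), Cyp3a2 (0.932) and Nrip3 (0.929). The 100 µM library is the highest for each of them, so 1 library sets much of this likeness. Mroh2a, a HEAT-repeat gene, had 58.7 CPM at 100 µM and 15.3 to 24.3 CPM below it, against 6.95 to 16.1 CPM in DMSO. At 0.4 µM the 13 other chemicals of plate 2 had 13.6 to 27.5 CPM of Mroh2a, 7 of 13 above the highest DMSO library.

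The cells carried hepatocyte markers, which summed to 33179 CPM or more in each of the 14 libraries. Of 17 hepatocyte markers 2 fell at 100 µM, Tf, transferrin, and the asialoglycoprotein receptor chain Asgr1, whose call was lost in 9 of 17 alternatives. Tf had 1524 CPM at 100 µM and 3427 to 3960 CPM below it, against 3142 to 3730 CPM in DMSO. Alb, albumin, had 3787 CPM at 100 µM, against 4618 to 5210 CPM, and was not called (-0.40 ± 0.15, adjusted p = 0.169), while the 5 lower doses held 5980 to 6812 CPM, above every DMSO library. At 0.4 µM 11 of the 13 other chemicals of plate 2 were above every DMSO library too, with 4728 to 6917 CPM. The summed level of the list was 33179 CPM at 100 µM, against 40942 to 62646 CPM in DMSO. Macrophage markers summed to 159 CPM at 100 µM, against 111 to 152 CPM in DMSO, and endothelial markers to 83.3 CPM, against 59.3 to 76.5 CPM, with 0 calls among 11 and 9 genes. Stellate and mesenchymal markers summed to 87.3 CPM, against 202 to 267 CPM. In that list Tagln, a smooth muscle actin-binding protein, fell to 3.23 CPM, against 43.8 to 80.8 CPM in DMSO, and Vim fell to 46.3 CPM, against 119 to 188 CPM, while Reln, a marker of stellate cells, rose to 26.7 CPM, against 4.17 to 9.22 CPM. Col3a1 had 20 counts at 100 µM, against at most 24 in DMSO, and Dcn had 7, against at most 6. Col1a1, Des, Pdgfrb and Acta2 were at 0 counts at 100 µM, against at most 0, 1, 3 and 4 counts in DMSO, so no loss can be read from them. The part of other cell types in the results was not tested.

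Of 23 genes of the urea cycle and of amino acid breakdown 2 fell at 100 µM, Arg1 and Otc, and 1 rose, Tat. Arg1 had 703 CPM, against 1515 to 2748 CPM in DMSO, while the Otc call was lost in 8 of 17 alternatives. The 13 other chemicals of plate 2 had 21.2 to 32.9 CPM of Otc at 0.4 µM, 8 of 13 below every DMSO library. The 100 µM value of fludioxonil, 22.6 CPM, lies within that range. Among 23 acute phase genes the fibrinogen chains Fgb and Fgg rose and Hp fell. The Hp call was lost in 9 of 17 alternatives, with a change between -2.81 and -1.62, and that of Fgg in 8. Of 25 subunits of oxidative phosphorylation 1 fell, Atp5a1, a call lost in 9 of 17 alternatives. Of all tested probes 1.27% were called higher and 2.87% lower at 100 µM. A count of 1 or 2 in such lists, here or above, is therefore no result about the list.

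A few transcripts were outside the DMSO range already at 0.4 µM and at each dose above it. There were 7 such probes (0.0633% of those tested), Cyp1a1, Mt2A, Mt10.7, Mt1a, Adm and Fam25a0.9 above and Nefl below. Metallothioneins bind zinc and copper and are raised by metals and glucocorticoids. Mt2A had 354, 375, 306, 296, 387 and 736 CPM from 0.4 to 100 µM, against 81.2 to 251 CPM in DMSO. It held 296 to 387 CPM up to 33.3 µM with no order by dose, and it was called at 100 µM (2.74 ± 0.33, adjusted p = 0.00192). Mt10.7 had 2482 to 3307 CPM with no order by dose, against 588 to 1608 CPM. Mt1a had 257 to 545 CPM, highest at 1.2 and 11.1 µM, against 56.6 to 167 CPM, and was not called. Adm, the peptide adrenomedullin, had 238 to 359 CPM, against 82.9 to 196 CPM. The 0.4 µM libraries of the 13 other chemicals on plate 2 lay in part beyond every DMSO library as well. Mt1a had 121 to 450 CPM in them, 10 of 13 above the highest DMSO library, Mt10.7 had 1329 to 3815 CPM, 9 of 13 above it, and Adm 120 to 389 CPM, 7 of 13 above it. Fam25a0.9 was above it in 9 of 13 and Mt2A in 4 of 13, while Nefl was below the lowest DMSO library in 6 of 13. An effect of fludioxonil at 0.4 µM and a difference between treated and DMSO wells cannot be told apart for these genes.

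Cyprodinil, an anilinopyrimidine fungicide, and carbaryl, a carbamate insecticide, were tested at the same 6 doses on the same plate. Dose trends of the 3 chemicals and of DMSO replicates 2 to 9 were fitted in 1 model of 26 libraries, and the trends of fludioxonil and of each other chemical were set against each other, 2 pairs in all. Fludioxonil and cyprodinil differed at 46 probes (0.416%), with 14 higher and 32 lower for fludioxonil. That number was 1 against plate 2 DMSO alone and 0 with DMSO replicate 1 added. Leaving out DMSO replicates 2 to 9 in turn gave 26, 26, 43, 94, 30, 28, 17 and 25, and leaving out the fludioxonil libraries from 0.4 to 33.3 µM in turn gave 28, 35, 12, 74 and 157. Without the 1.2 and 11.1 µM libraries of fludioxonil and DMSO replicate 5 together it was 541. No cyprodinil library was left out for that number, though its 1.2 µM library had a library score of 0.43. Cyp1a1 had 151 CPM in the 100 µM fludioxonil library and 10.1 CPM in that of cyprodinil, and its trend was higher by 2.24 (95% interval 1.28 to 3.21, adjusted p = 0.0449). Without the 100 µM libraries that difference was 0.62 (adjusted p = 0.695). Tiparp had 112 and 29.4 CPM in the fludioxonil and cyprodinil libraries at 100 µM, and its trend was higher by 1.07 (0.64 to 1.50, adjusted p = 0.0359). Hamp, the iron hormone hepcidin, differed by 1.74 (1.20 to 2.28, adjusted p = 0.014), with 145 CPM for fludioxonil and 32.2 CPM for cyprodinil. Mt2A, Atf3, Ddit3 and Ndrg1 were higher for fludioxonil as well. Without the 100 µM libraries Tiparp, Ddit3 and Atf3 differed by 0.55, 0.34 and 0.35 and were not called, while Hamp differed by 1.82 and kept its call. The calls of Cyp1a1, Atf3 and Ndrg1 were lost without 6 of the 8 DMSO libraries, 1 at a time, those of Mt2A and Aldh1a1 without 3 and those of Ddit3 and Cyp2b2 without 1. Without the 1.2 and 11.1 µM libraries of fludioxonil and DMSO replicate 5 all 17 genes followed singly kept their call, with Cyp1a1 at 2.45 and Tiparp at 1.13.

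Cyp2b2 stood at the other end, with 3.23 CPM in the 100 µM fludioxonil library and 47.5 CPM in that of cyprodinil, a difference in trend of -3.13 (-4.45 to -1.80, adjusted p = 0.0417). Slc10a2 had 1.72 CPM for fludioxonil and 13.2 CPM for cyprodinil (-2.18, interval -2.94 to -1.42, adjusted p = 0.0185). Akr1c2, a hydroxysteroid dehydrogenase, differed by -2.68, Calml4 by -2.06 and Aldh1a1 by -1.55. Several genes that rose with fludioxonil at 100 µM were not called against cyprodinil, among them Cyp1a2, Srxn1, Ugt2b1, Gsta50.81 and Fosl1, with adjusted p from 0.281 to 0.633. Gsta2 had 1867 CPM for fludioxonil and 1242 CPM for cyprodinil at 100 µM, a difference in trend of 0.19 (-0.39 to 0.77). Cyp3a1 had 1388 and 1501 CPM for fludioxonil and cyprodinil, with a difference of -0.01 (-0.48 to 0.45). Nqo1 had 253 and 191 CPM for fludioxonil and cyprodinil, with a difference of 0.22 (-0.58 to 1.03). These intervals do not show that the chemicals act alike.

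Between fludioxonil and carbaryl 0 probes were called by edgeR (0% of those tested), while 1321 had an unadjusted p under 0.05 and DESeq2 gave 78 calls. Without the 33.3 µM library of fludioxonil edgeR called 74, and without that of 11.1 µM it called 2. Without the 1.2 and 11.1 µM libraries of fludioxonil and DMSO replicate 5 together it called 535, of which 278 were higher and 257 lower for fludioxonil. No carbaryl library was left out there, though its 3.7 µM library had a library score of 0.30. Cyp1a1 had 151 CPM at 100 µM for fludioxonil and 46.1 CPM for carbaryl, a difference in trend of 0.66 (-0.23 to 1.54, adjusted p = 0.593). Srxn1 had 413 CPM for fludioxonil and 66.9 CPM for carbaryl, a difference of 1.34 (0.70 to 1.98, adjusted p = 0.172). Txnrd1 had 313 CPM for fludioxonil and 45.2 CPM for carbaryl, a difference of 1.24 (0.67 to 1.81, adjusted p = 0.168). Cyp2b2 had 3.23 CPM for fludioxonil and 59.0 CPM for carbaryl (-2.78, interval -4.09 to -1.46, adjusted p = 0.172). Neither interval for Srxn1 or Txnrd1 holds 0, but the differences did not pass over all probes. Without those 3 libraries the differences of Srxn1, Txnrd1 and Cyp2b2 were 1.50, 1.41 and -2.61 and passed (adjusted p = 0.0206, 0.018 and 0.0344), while that of Cyp1a1 was 0.86 and did not (adjusted p = 0.161).

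**Figure D5:**
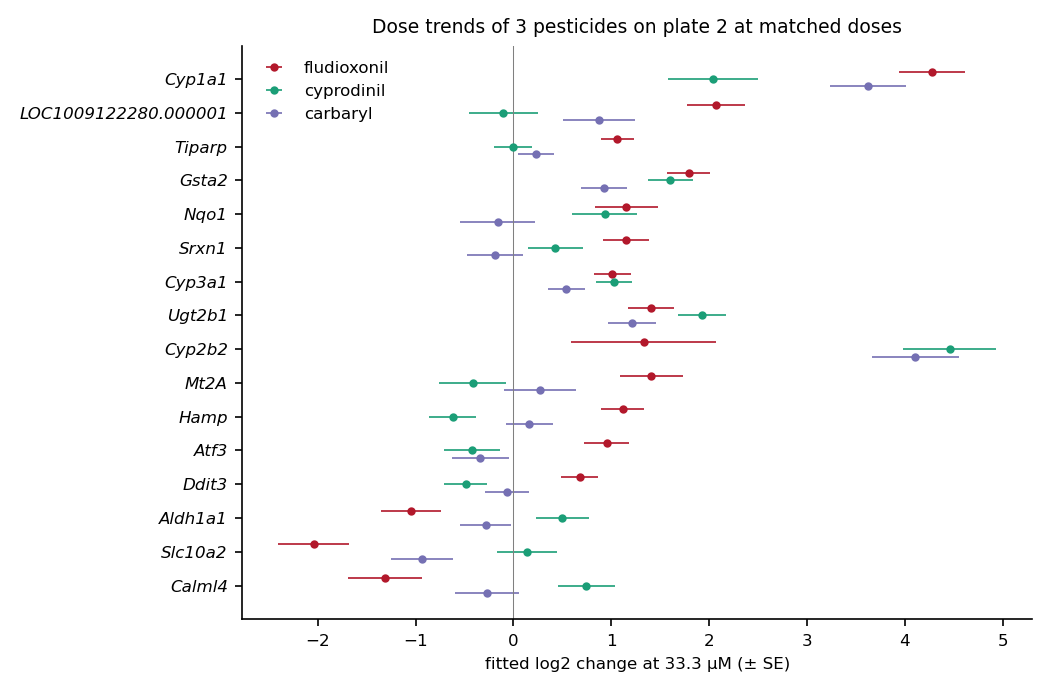
Fitted log2 change at 33.3 µM (± SE) of 16 genes for fludioxonil (red), cyprodinil (green) and carbaryl (violet), from 1 model that shares the DMSO libraries. The values are read from lines fitted through all doses, not from the 33.3 µM libraries. Cyp1a1 is highest for fludioxonil at 4.28 and lowest for cyprodinil at 2.04, while Cyp2b2 is lowest for fludioxonil at 1.33 and highest for cyprodinil at 4.46.

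Reference chemicals, with 1 library each and doses of their own, place these levels. Oltipraz at 30 µM, an NRF2 inducer that also raises Cyp1a1, gave 39.7 CPM of Cyp1a1, 1883 CPM of Gsta2, 451 CPM of Nqo1 and 482 CPM of Srxn1. Sulforaphane at 10 µM gave 462 CPM of Srxn1 and 82.5 CPM of Nqo1. Pregnenolone 16α-carbonitrile at 15 µM, the standard PXR activator of the rat, gave 2530 CPM of Cyp3a1 and 216 CPM of Cyp3a23/3a1. TCPOBOP at 1.5 µM, a CAR activator, gave 51.0 CPM of Cyp2b2. WY-14,643 at 15 µM, a PPARα agonist, gave 1266 CPM of Cd36. The doses differ, so no comparison was made.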

How the data were processed

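The 14 libraries compared hold raw whole-number counts per probe as the authors deposited them. Per the submitters' processing notes the reads were aligned with Bowtie, and its version, the build and the probe set are not given in the sources used here. Probe symbols are printed as the file spells them. Of 22253 probes, 11055 reached 10 counts at the median depth of 5745085 (1.74 CPM) in at least 6 libraries of the series and were tested.

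Counts were scaled by TMM and tested with edgeR 4.0.16 (R 4.3.3), by the quasi-likelihood test with a plate term, and p-values were adjusted by Benjamini-Hochberg over all probes at 0.05. The dose score was log2(1 + dose). Every adjusted p comes from this tool. Differences from cyprodinil and carbaryl come from 1 model of 26 libraries. Their 95% intervals are a normal approximation from the SE and are somewhat narrower than the test itself would give. The 100 µM fit, its naming rule and the sets without 3 libraries were added after the data were seen. DESeq2 1.42.0, other filters and left-out libraries were alternatives. In simulated counts for the dose trend over 11055 probes, 60% of changes of 1 log2 unit and 94% of changes of 2 were called. In the 100 µM fit these were 8% and 64%. The simulated trends rose in proportion to the dose score, which is the shape the model fits, with no plate effect. The shares for the dose trend therefore do not hold for changes confined to 100 µM. Each probe was drawn on its own, so a shift that many probes share, as in DMSO replicate 5, was not simulated. Among unchanged probes 9 were called in the simulated dose trend and 13 in the simulated comparison with cyprodinil.

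The members and gene lists were chosen with earlier results of these data known. Named genes were up to 15 called in each direction with a mean count of at least 10, list members that were called or had the smallest adjusted p, up to 10 in each direction of each difference, the 5 most like Cyp1a1 and up to 10 that left the DMSO range at the lowest doses. In the 100 µM fit the up to 15 in each direction also had to be called without each DMSO library and with the library score, while list members did not. Cyp4a1, Atf4, Asns, Trib3 and Sult1a1 were named after their values were seen. The library score places a library along the difference of DMSO replicate 5 from replicates 4 and 6, over 5535 probes. Log2 CPM values, which serve the range rule, the library score, the medians by dose and the correlations, use a prior count of 2. Fitted log2 changes are those of the edgeR fits at the tool's default setting. Reads from PCR are not independent molecules, so floors of 3 counts cover counting error only. No 2 libraries were identical. Close relatives such as the Gsta, Cyp3a and Ugt2b genes can share probes. Some genes that met the naming rules are not reported here.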

Additional observations from a re-analysis of the deposited data

Results flagged for a closer look

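In 13 of 112 genes examined, 1 of the 8 DMSO libraries lay far from the others, with a gap to its nearest neighbour that, as a share of the whole range, was above Dixon's critical value for 8 samples. Chance gives about 1 in 20 such groups. In 7 of the 13 the library was DMSO replicate 5. Its share was 0.640 for Aldh3a1 (0.348 CPM), 0.626 for Cyp2c6v1 (185 CPM), 0.568 for Tgm1 (14.3 CPM), 0.558 for Hp (2101 CPM), 0.541 for Herpud1 (1470 CPM), 0.544 for Fgb (227 CPM) and 0.660 for Lonp1 (15.3 CPM). Of these, Aldh3a1 had too few counts to be tested in the fits. DMSO replicate 2 was high for Ephx1 (share 0.574, 1056 CPM) and Scd1 (0.641, 406 CPM). DMSO replicate 7 was high for Cryab (0.569, 114 CPM) and Akr1c2 (0.598, 90.8 CPM). DMSO replicate 9 was high for Fam25a0.9 (0.626, 12.3 CPM) and Dusp1 (0.640, 817 CPM).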

How the results depend on the processing

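Alternatives were followed for genes with a call, 92 in the 100 µM fit, 17 against cyprodinil and 8 in the dose trend, and none of these reversed its direction. Of 1563 values in the 100 µM fit 292 lost the call, of 425 differences between chemicals 118, and of 208 dose trends 70. The 8 calls of the dose trend became 76 with DESeq2, 17 with no filter, 27 with no plate term, 0 on plate 2 only, 0 without the highest dose, 3 with DMSO replicate 1 added, 23 with the library score, 16 without the 1.2 and 11.1 µM libraries and DMSO replicate 5, and 222 with all libraries in 1 model; they ranged from 1 to 42 with 1 library left out. The 46 calls against cyprodinil became 232 with DESeq2, 23 with no filter, 1 on plate 2 only, 96 with the dose scored by rank, 0 with DMSO replicate 1 added 390 with the library score and 541 without the 1.2 and 11.1 µM libraries of fludioxonil and DMSO replicate 5, and ranged from 12 to 157 with 1 library left out. The 0 calls against carbaryl became 78 with DESeq2, 52 with the library score and 535 without those 3 libraries, and ranged from 0 to 74. The 457 calls of the 100 µM library became 860 with DESeq2, 841 with no filter, 9 on plate 2 only, 11 with DMSO replicate 1 added and 1265 with the library score, and ranged from 230 to 922. The cause was not tested. No paired analysis was possible because each dose has 1 library and the replicate numbers of DMSO belong to no dose.

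Each dose rests on 1 library, so no result at 100 µM has a replicate check, and that fit takes its spread from the DMSO libraries. Plate 2 alone leaves 3 DMSO libraries. Probes with few counts, such as Cyp1b1, could not be tested at this depth.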

Other observations

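Several probes came close to the threshold of the dose trend without passing it. Among those with higher fitted values, Pdlim1, a cytoskeletal adaptor, had a trend of 0.83 log2 units (edgeR adjusted p = 0.0617) and Egr2, an immediate early transcription factor, 3.13 (adjusted p = 0.0968). Among those with lower fitted values, Pln, phospholamban, had -1.69 (adjusted p = 0.05004) and Cd36 -1.04 (adjusted p = 0.0528).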
